A study of Equus caballus with 24 samples.

Results

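The genes described here are the WNT ligands together with their receptors, coreceptors, secreted antagonists and agonists, and the intracellular genes AXIN1, AXIN2, CTNNB1, LEF1, TCF7, TCF7L1 and TCF7L2. They were matched by gene symbol, in a choice made with earlier results of these data known, and 49 of the 24232 genes with deposited reads matched. The 49 members were 18 WNT ligands, 7 Frizzled receptors, the coreceptor LRP6, 5 ligand-binding antagonists (SFRP1, SFRP2, SFRP4, SFRP5 and WIF1), 4 DKK antagonists, 4 R-spondins, 3 R-spondin receptors, 2 AXIN scaffolds, beta-catenin (CTNNB1) and 4 transcription factors. RNA was sequenced from female Debao ponies (DPs), a breed of small stature, and from female Mongolian horses (MHs), the taller breed they were compared with. There were 6 animals per breed, 3 juveniles and 3 adults, and a pituitary library and a long bone library were made for each stage and breed in triplicate. The 8 groups of 3 libraries are named by breed, tissue and stage as MHPJ, MHPA, DPPJ and DPPA for the juvenile (J) and adult (A) pituitary (P), and MHLBJ, MHLBA, DPLBJ and DPLBA for the long bone (LB), with the replicate number after the name. The long bone samples were the ends of long bones, labelled epiphysis and obtained with the pituitaries at a slaughterhouse. Every group is tissue ground as a whole, so bone, cartilage, marrow and fat, or the anterior and posterior pituitary, were not separated.

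WNT ligands are secreted lipid-modified proteins that bind a Frizzled receptor together with the coreceptor LRP6 or its relative LRP5. This halts the AXIN-containing complex that destroys beta-catenin, and beta-catenin then enters the nucleus and acts with TCF and LEF transcription factors. Other ligands, such as WNT5A and WNT11, act mostly without beta-catenin, through calcium or planar cell polarity. SFRP proteins and WIF1 bind the ligands, DKK proteins block the coreceptor, and R-spondins raise the number of receptors at the cell surface by way of the LGR receptors. In long bones the pathway governs the growth plate cartilage and the formation of bone by osteoblasts, and in the pituitary it acts on the growth of the gland and the choice of cell fates.

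The study also designed q-PCR primers for 5 of the members, WNT2, WNT4, WNT5A, WNT11 and FZD2. The horse primers below are those of the members among these that were called between the breeds in the long bone over both stages. They are written 5′ to 3′ and were not placed on a genome here.
WNT4 forward: cgaggaggagacctgcgagaag
WNT5A forward: gcggctacgaccagttcaagac
WNT5A reverse: tgacaggcggacgacgagac
WNT11 forward: ctgccatcagccacgccatc
WNT11 reverse: gctgaggttgtccgcacatcc
FZD2 forward: atgaagcacgacggcaccaag
FZD2 reverse: gaagtagcaggcgatgacgatgg

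The reverse primer of WNT11 and both primers of FZD2 have the same letters as the primers listed for the mouse genes.

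The reads counted on genes ranged from 11433209 to 23573036 in the pituitary and from 11616518 to 27007342 in the long bone libraries. Of 10 anterior pituitary genes listed as markers, 7 were in the files, and their summed RPKM (reads scaled by gene length and library size) ranged from 14601 to 42638 in 7 of the 12 pituitary libraries. In the other 5, all of MHPJ and the libraries MHPA1 and DPPA1, it was only 0.15 to 21.0. TSHB was at 0 in all 5 of them and GH was at 0 in MHPJ1, while DPPA1 still had GH at 6.47 and POMC at 13.0. These libraries are called hormone-poor below, for the hormones of the anterior lobe. AVP and OXT, whose products the posterior lobe releases, were at 2106 and 35.1 RPKM in DPPA1 and at 477 and 18.2 in the hormone-rich DPPJ2. In the other 4 hormone-poor libraries AVP was at most 0.81 and OXT was at 0. Their sum of 11 neuronal and glial markers was 5285 to 14447, against 294 to 4074 in the other 7. MHPJ2 differed from the other hormone-poor libraries in its striated muscle (555), stroma (433) and marrow (284) sums. In the long bone, osteoblast and osteocyte markers summed to 3272 or more in every library. The sum of 11 cartilage markers was 40.0, 232, 1228, 2907, 6102 and 6781 in the DP libraries and 6.69 to 287 in the MH libraries. In bulk tissue, fewer cells of a type and less RNA per cell cannot be told apart. A member was called different when its fold change was over 2 and P, before adjustment, was under 0.05 in edgeR's quasi-likelihood test, as the study set it, and adjusted p is the Benjamini-Hochberg value of the same test over all genes tested. Calls given for DESeq2, a second tool fitted to the same counts, used the same limits on its own P before adjustment. For 3 against 3 libraries, an exact permutation test (two-sided) cannot give a p below 0.1.

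Most ligands were scarce, and the most abundant members were antagonists, an R-spondin and CTNNB1. Some receptors and antagonists were as scarce as the ligands, with medians of 0.045 RPKM for FZD10 and 0.155 for LGR5 in the long bone and of 0.06 for DKK1 and 0.14 for LGR6 in the pituitary. Reads were found in all 24 libraries for 30 of the 49 members, and WNT3A had at most 3 reads in each. In every library of the tissue, 17 members were above 1 RPKM in the pituitary and 20 in the long bone. Among the 18 ligands only WNT11 did so in the pituitary and only WNT10B in the long bone. The highest RPKM of any ligand was 22.7, that of WNT10B in DPLBA3. In the long bone the highest median RPKM over the 12 libraries was that of CTNNB1, at 207 with a range of 64.5 to 452. It was followed by the R-spondin RSPO3, at 174 with a range of 73.6 to 326. The antagonist WIF1 came next at 111, and its range from 14.0 to 276 overlapped both. In the pituitary the antagonist SFRP5 led with a median of 128 and a range of 65.6 to 496. CTNNB1 followed at 101, between 81.1 and 140, and DKK3 at 96.7, between 17.5 and 179 so these 3 did not differ beyond their spread. The gene length behind the RPKM of SFRP5 was 447 bases in the files, which weighs on its level but not on comparisons of SFRP5 between libraries. WNT3A, WNT8B, DKK4 and RSPO4 were too low to be tested in any comparison.

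**Figure D1:**
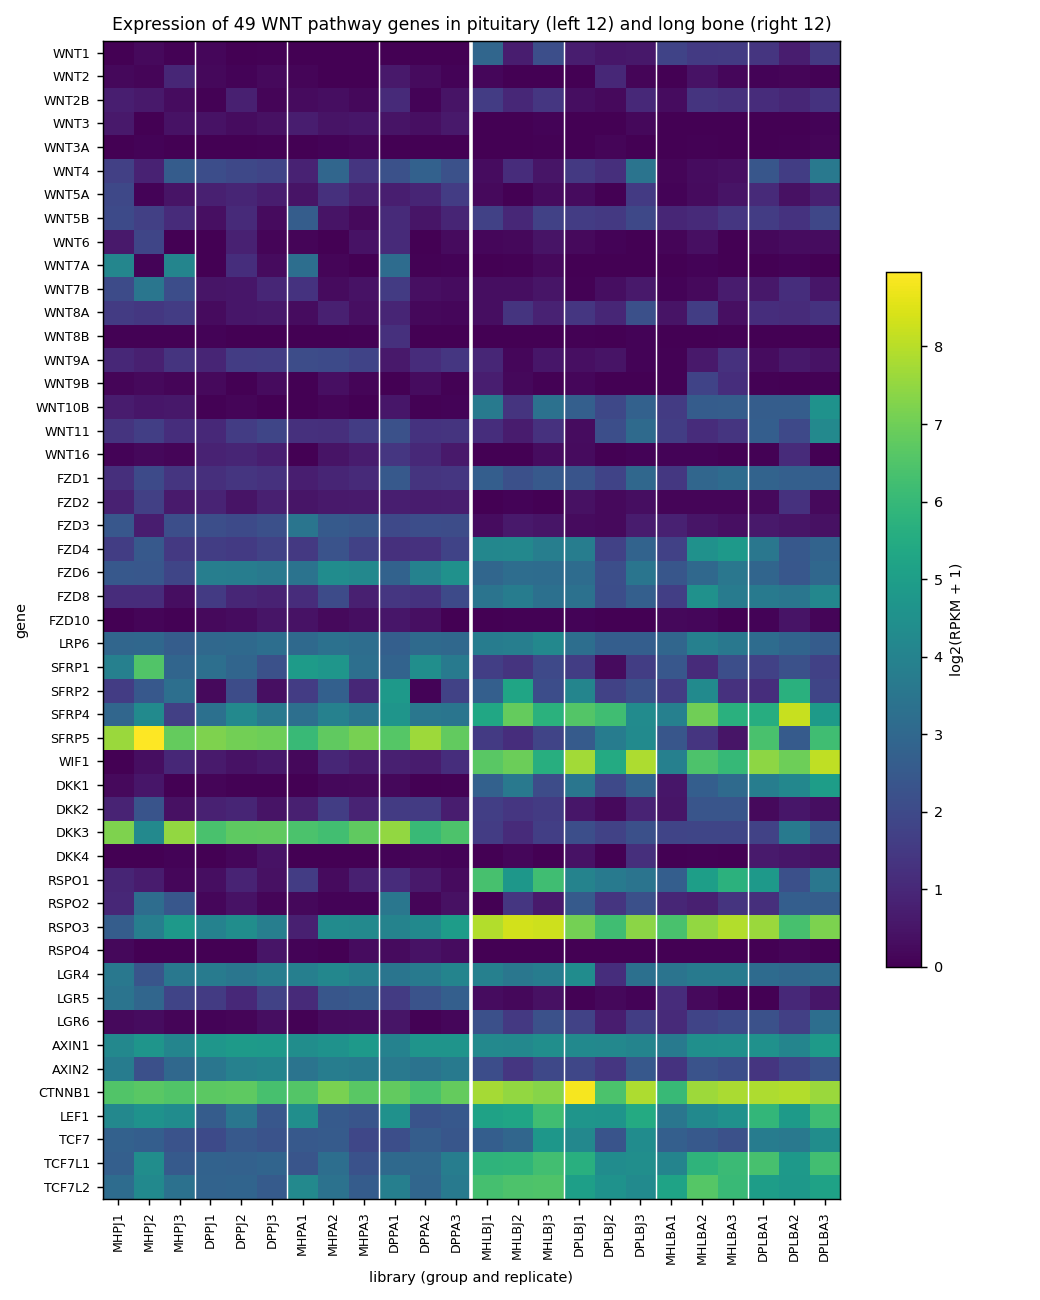
Colour shows log2(RPKM + 1) of the 49 members (rows, by role) in the 24 libraries (columns, pituitary on the left and long bone on the right, groups divided by lines). CTNNB1 is bright and AXIN1 of middle brightness throughout. WIF1, DKK1 and RSPO1 stand out mainly in the long bone, SFRP5 and DKK3 mainly in the pituitary, and most ligand rows are dark. RSPO3 is bright in the long bone and dimmer in the pituitary.

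Between the tissues, 34 of the 45 members tested were called, 15 higher and 19 lower in the pituitary, which is 75.6% of the members tested. Over all genes tested the call was made for 38.9%, with 21.5% higher and 17.4% lower. With an adjusted p under 0.05, 30 members passed, as did 38.3% of all genes. The median log2 difference, pituitary minus long bone, was -0.45 over the members and 0.03 over all genes. The tissues came from the same 12 animals, and the fit took the libraries as independent.

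Secreted inhibitors were split between the tissues by gene. WIF1, which binds WNT proteins directly, had at most 1.25 RPKM in the pituitary and at least 14.0 in the long bone, a fitted 214-fold difference (log2 -7.74, SE 0.49, adjusted p = 6.82e-10). DKK1, the antagonist of LRP6, ranged from 0 to 0.46 RPKM in the pituitary and from 0.44 to 30.8 in the long bone (adjusted p = 5.23e-08). It had 0 to 10 reads in each pituitary library, so the fitted fold depends on the prior count, and only MHLBA1 in the long bone reached down to the pituitary range. DKK3, a family member not known to bind LRP6, went the other way, with 17.5 to 179 RPKM in the pituitary and 1.14 to 11.7 in the long bone (log2 4.89, SE 0.36, adjusted p = 3.82e-09). SFRP5 was also higher in the pituitary by 18.4-fold, and its ranges of 65.6 to 496 and 0.42 to 82.7 RPKM met only in DPLBA1 and DPLBA3. SFRP1 was 6.15-fold higher and SFRP4 was 7.13-fold lower in the pituitary.

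The R-spondins and the receptors were split as well. RSPO1 was at 0.11 to 2.02 RPKM in the pituitary and 3.55 to 80.1 in the long bone, with no overlap (log2 -5.24, SE 0.51, adjusted p = 8.12e-08). RSPO3 was 11.8-fold lower in the pituitary. Among their receptors LGR6 was 18.7-fold lower and LGR5, a marker of stem cells in several tissues, 11.2-fold higher, while LGR4 was not called. Among the Frizzled receptors FZD1, FZD4 and FZD8 were lower and FZD2, FZD3 and FZD10 higher in the pituitary. FZD3, a receptor prominent in neurons, was at 0.65 to 10.0 RPKM in the pituitary and 0.18 to 0.78 in the long bone (log2 3.0, SE 0.33, adjusted p = 4.45e-07).

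Of the ligands, 7 were higher and 4 lower in the pituitary. WNT10B, a ligand known to favour osteoblasts over fat cells, had 0 to 16 reads in the pituitary libraries and 49 to 627 in the long bone libraries. WNT1 had 0 to 3 reads in the pituitary and 10 to 119 in the long bone. In both cases the groups did not overlap, and because of the pituitary zeros the fitted fold depends on the prior count. WNT3 had at most 4 reads in any long bone library and 8 to 17 in 11 pituitary libraries, with 0 in MHPJ2. WNT9A was 3.53-fold higher in the pituitary. All 4 transcription factors were lower in the pituitary, TCF7L1 by 7.01-fold, TCF7L2 by 5.18-fold, LEF1 by 3.36-fold and TCF7 by 2.70-fold, as was CTNNB1 by 2.20-fold. AXIN2, a common target of beta-catenin signalling, was 3.50-fold higher in the pituitary (3.55 to 15.5 RPKM against 1.50 to 4.49).

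**Figure D2:**
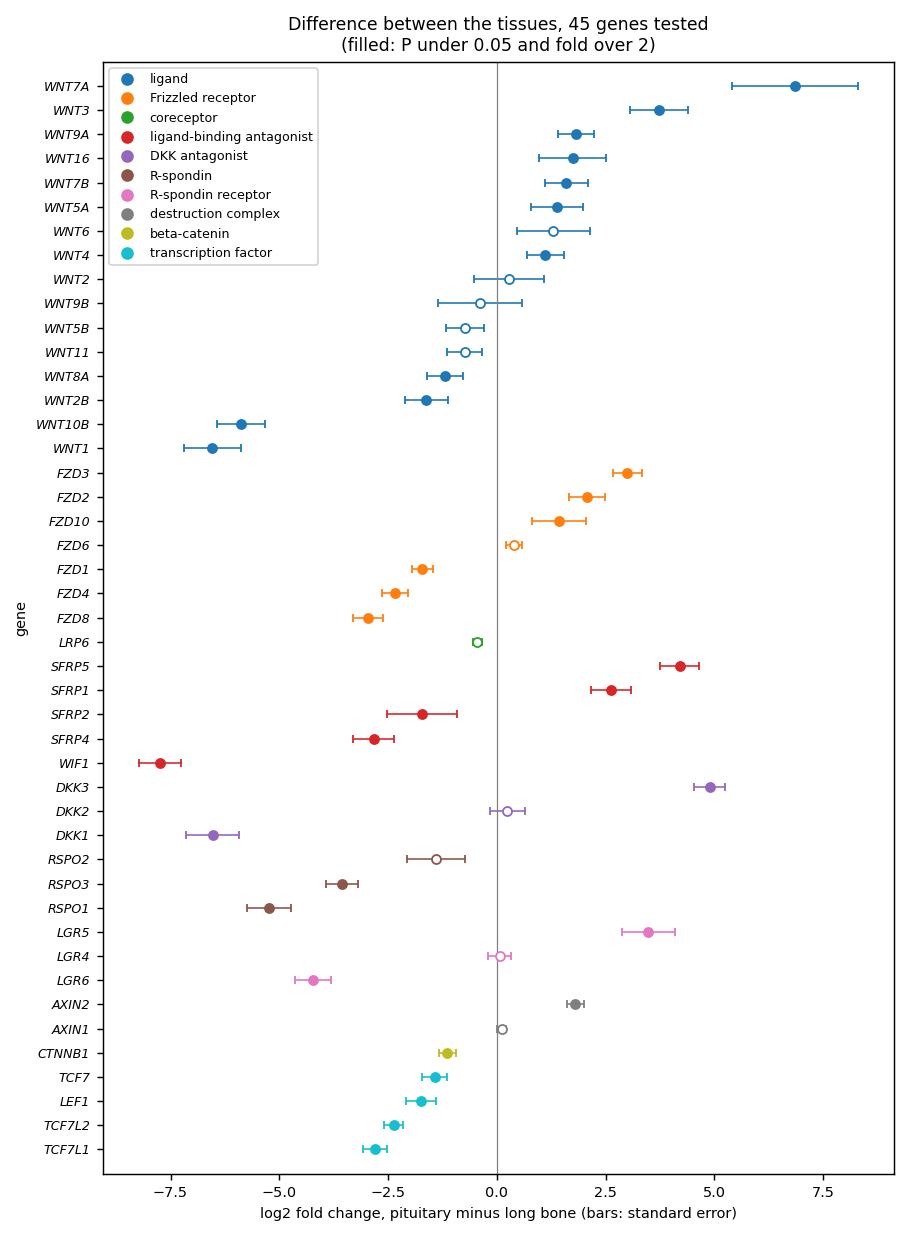
Log2 fold change of each of the 45 members tested, pituitary minus long bone, with its standard error, coloured by role. Filled points have a fold change over 2 with P under 0.05 before adjustment. WIF1 lies farthest to the left, and WNT7A has the widest bar among the members far to the right.

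Without the 5 hormone-poor libraries, with the other 3 pituitary groups against the 4 long bone groups, 34 members were called, 13 higher and 21 lower in the pituitary, and 32 of them were shared with the full set. WNT7B lost its call, with a log2 difference of -0.29 in place of 1.60, and WNT7A was not tested there. WNT7A, a ligand prominent in the nervous system, was at 16.3, 16.0, 8.50 and 8.05 RPKM in MHPJ1, MHPJ3, MHPA1 and DPPA1 and at 0.05 in MHPJ2. It was at 1.28 in DPPJ2 and at 0 to 0.20 in the other 6 pituitary libraries, and DPPJ2 was also the highest of the hormone-rich libraries in the neuronal and glial sum, at 4074. Some calls rested on 1 library. WNT8A fell short of a 2-fold change without MHLBA2 (log2 -0.87) and CTNNB1 without DPLBJ1 (log2 -0.98). WNT4 did so without DPLBA2, DPLBJ1, DPLBJ2, MHPA2 or MHPJ3 (0.81 to 1.00). The 4 members called with an adjusted p over 0.05 each lost the call in many such fits. These were WNT5A without DPLBA2, DPLBJ1, DPPA3, MHLBA1, MHLBA2, MHLBJ2, MHPA2 or MHPJ1 (0.85 to 1.36) and SFRP2 without any of 12 libraries, of which DPLBA2 moved it most (-0.92). WNT16 lost it without DPLBJ2, DPLBJ3, DPPA1, MHLBA2, MHLBA3, MHLBJ1, MHLBJ2, MHPA3 or MHPJ2 (1.55 to 1.73), and its log2 difference was 2.79 without DPLBA2 or MHLBJ3. FZD10 lost it without DPLBA1, DPLBA3, DPLBJ2, DPLBJ3, DPPA1, DPPJ3, MHLBJ1, MHPA1 or MHPJ2 (1.20 to 1.34), and its log2 difference was 2.16 without DPLBJ1. The WNT16 and FZD10 values, with groups at 3 reads or fewer, depend on the prior count. The other libraries behind the SFRP2 call were DPLBJ1, DPPA2, DPPA3, DPPJ1, DPPJ3, MHLBA2, MHLBJ2, MHPA1, MHPA3, MHPJ1 and MHPJ2 (-1.70 to -1.26). With library size alone as the scaling WNT8A (-0.98), CTNNB1 (-0.96) and SFRP2 (-1.51) were not called either.

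To ask which members differed with breed in the growing and the grown bone end, DP and MH long bones were compared over both stages, 6 libraries against 6. Of the 39 members tested 15 were called, 9 higher and 6 lower in DPs. That is 38.5% of the members against 19.3% of all genes tested (11.4% higher and 7.97% lower), and 8 of the 15 had an adjusted p under 0.05, as 12.8% of all genes did. The median log2 fold change, DP minus MH, was 0.11 over the members and -0.01 over all genes. The ligands WNT4, WNT5A and WNT11, the antagonists SFRP5, WIF1, DKK1 and DKK3, the R-spondin RSPO2 and the receptor FZD2 were higher in DPs. The ligands WNT1 and WNT9B, the antagonist DKK2, the R-spondin RSPO1, the receptor FZD4 and the transcription factor TCF7L2 were lower in DPs.

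WNT4 (gene ENSECAG00000018933 in the files), a ligand of cartilage, joint and kidney, had the largest fitted difference among the called members with over 3 reads in at least 1 library of each group. In juveniles it was at 1.79, 1.33 and 9.90 RPKM in the DP libraries and at 0.23, 1.20 and 0.41 in the MH libraries. In adults it was at 4.22, 2.09 and 11.4 in DPs and at 0.10, 0.24 and 0.29 in MHs. Every DP library was thus above every MH library, and MHLBJ2 came closest to them. The fitted difference was 13.8-fold (log2 3.79, SE 0.66, adjusted p = 0.00815). WNT11, which acts mostly without beta-catenin, ranged from 0.24 to 17.8 RPKM with a median of 4.42 in DPs and from 0.60 to 2.09 with a median of 1.32 in MHs (4.05-fold, adjusted p = 0.0593). DPLBJ1 was the lowest of all 12 libraries, while the other 5 DP libraries were above all MH libraries. WNT5A, also a ligand of the branches without beta-catenin, reached 1.88 RPKM in DPLBJ3 and 1.08 in DPLBA1 and was between 0 and 0.38 in MHs. Its DP values of 0, 0.19 and 0.33 in DPLBJ2, DPLBJ1 and DPLBA2 lay within the MH range.

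WNT1, which in bone is a ligand required for normal bone mass, went the other way. It was at 0.64, 0.46 and 0.50 RPKM in DPLBJ and 1.62, 0.65 and 1.77 in DPLBA, against 6.76, 0.63 and 3.43 in MHLBJ and 2.51, 1.88 and 1.97 in MHLBA. MHLBJ2 was the only MH library within the DP range (3.38-fold lower in DPs, adjusted p = 0.0417). WNT9B had 0 to 2 reads in each DP library, and 91, 21, 12, 4, 1 and 1 reads in the MH libraries. The difference therefore rested on MHLBA2, MHLBA3 and MHLBJ1, and the fitted fold depends on the prior count. WNT10B, the most abundant ligand of the tissue, had a median of 5.37 RPKM in DPs and 5.18 in MHs and was not called.

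**Figure D3:**
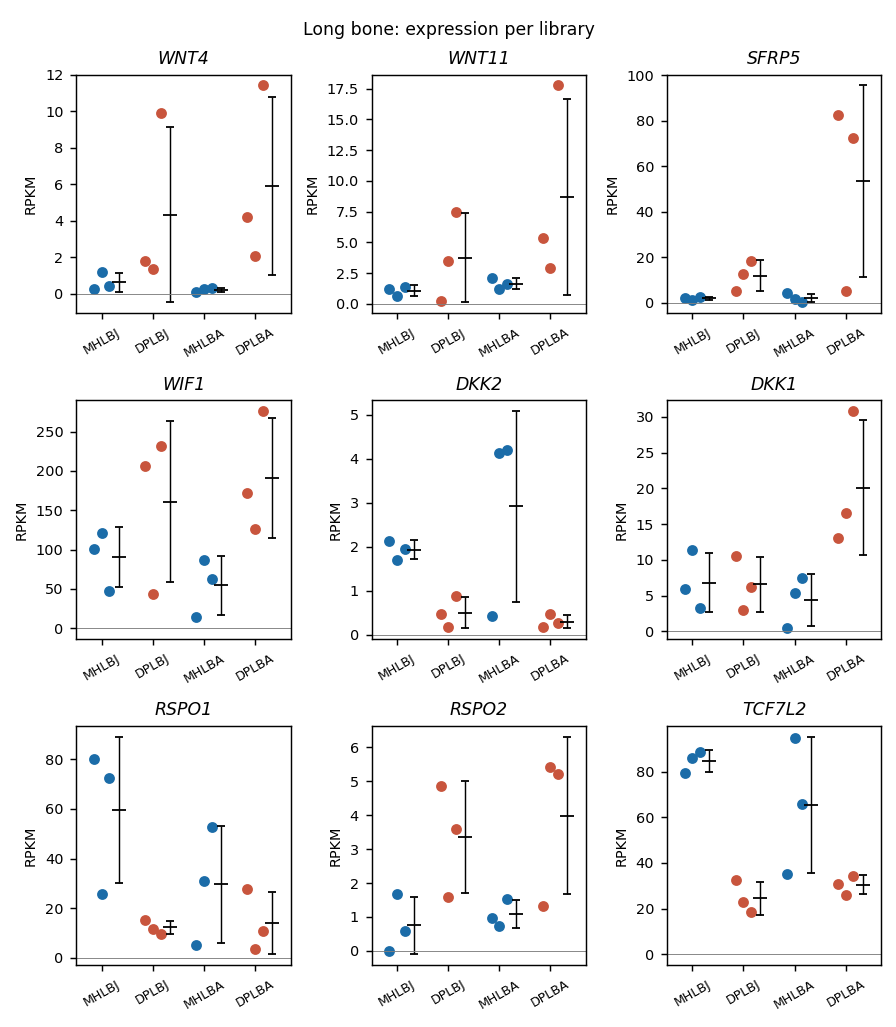
RPKM of 9 members in each of the 12 long bone libraries (blue MH, red DP), with the mean and SD of each group of 3 beside the points. WNT4 and SFRP5 are above all MH libraries and TCF7L2 is below all MH libraries in each of the 6 DP libraries.

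Several secreted antagonists were higher in DPs and 1 was lower. SFRP5 (ENSECAG00000026876) was at 4.98, 12.5 and 18.4 RPKM in DPLBJ and 82.7, 5.00 and 72.3 in DPLBA. In MHs it was at 1.86, 1.25 and 2.59 in juveniles and 4.21, 1.60 and 0.42 in adults. The breeds did not overlap, and the difference was 11.2-fold (log2 3.49, SE 0.74, adjusted p = 0.0143). WIF1, made by osteoblasts and cartilage cells, ranged from 43.5 to 276 RPKM in DPs, with a median of 189, and from 14.0 to 121 in MHs, with a median of 75.1. The ranges overlapped through DPLBJ2, the lowest DP library (2.60-fold, adjusted p = 0.0466). DKK3 was 2.04-fold higher in DPs (adjusted p = 0.0977), and DPLBA2 at 11.7 RPKM was far above the next library at 4.46. DKK1 was 2.25-fold higher (adjusted p = 0.132), with 2.97 to 30.8 RPKM in DPs and 0.44 to 11.4 in MHs. DKK2 (ENSECAG00000000805), which can inhibit or mildly activate the coreceptor, was at 0.46, 0.18 and 0.87 RPKM in DPLBJ and 0.17, 0.47 and 0.26 in DPLBA. In MHs it was at 2.13, 1.70 and 1.95 in juveniles and 0.42, 4.14 and 4.19 in adults. MHLBA1 alone lay within the DP range (5.62-fold lower in DPs, log2 -2.49, SE 0.53, adjusted p = 0.0141).

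The R-spondins moved in opposite directions. RSPO1 was lower in DPs, with a median of 11.2 RPKM (3.55 to 27.9) against 41.8 (5.38 to 80.1) in MHs, a 2.98-fold difference with an adjusted p of 0.0509. RSPO2 was higher in DPs, with a median of 4.23 RPKM (1.32 to 5.43) against 0.86 (0 to 1.67), a 3.96-fold difference with an adjusted p of 0.0697. RSPO3, the most abundant R-spondin, was lower in DPs by 1.63-fold and so was not called (adjusted p = 0.0646). The R-spondin receptors were not called.

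Among the receptors, FZD2 had 9, 6 and 10 reads in DPLBJ and 6, 68 and 7 in DPLBA, against 0, 3 and 1 in MHLBJ and 4, 5 and 2 in MHLBA. Every DP library had more reads than every MH library (adjusted p = 0.0307), but the log2 difference fell from 2.74 to 1.81 without DPLBA2 and no fold is given against so few reads. FZD4, the most abundant Frizzled receptor of the tissue and one of endothelial cells, had a median of 6.25 RPKM in DPs and 16.8 in MHs (2.15-fold lower in DPs, adjusted p = 0.12). LRP6 was 1.87-fold lower in DPs with an adjusted p of 0.0137, which is under the 2-fold limit, with 5.04 to 8.38 RPKM in DPs and 6.80 to 17.1 in MHs.

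Of the nuclear effectors only TCF7L2 (ENSECAG00000024121) was called over both stages. It was at 32.3, 22.9 and 18.3 RPKM in DPLBJ and 30.6, 26.1 and 34.5 in DPLBA. In MHs it was at 79.3, 85.9 and 88.6 in juveniles and at 35.3, 94.8 and 66.0 in adults. All 6 DP libraries were below all 6 MH libraries, with MHLBA1 the nearest, and TCF7L2 had the lowest adjusted p of the members (2.64-fold lower in DPs, log2 -1.40, SE 0.19, adjusted p = 0.00512). CTNNB1, AXIN1 and AXIN2 were not called. Their ranges in DPs of 84.4 to 452, 15.6 to 28.1 and 1.59 to 4.49 RPKM overlapped those of 64.5 to 224, 11.9 to 21.5 and 1.50 to 3.94 in MHs.

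The markers of other cell types moved with breed beside these differences. The endothelial sum was 182 to 346 in DPs and 450 to 699 in MHs except in MHLBA1, where it was 105. The sum of 6 marrow adipocyte markers was 1833 to 6852 in DPs and 6997 to 9503 in MHs except in MHLBA1, where it was 717. MHLBA1 was also the lowest MH library for WNT4, WIF1, DKK1, DKK2, RSPO1, RSPO3, FZD4, LRP6 and TCF7L2. The marrow neutrophil and erythroid sum was 2.26 in DPLBJ1 and 241 to 8114 in the other 5 DP libraries, against 0.86 to 30.2 in MHs. The stroma sum was 509 to 3128 in DPs and 232 to 726 in MHs, and the osteoblast and osteocyte sum 7271 to 28499 and 3272 to 19433. The part of these cell types in the differences was not tested. For cartilage, DPLBJ1 and DPLBA2, with sums of 40.0 and 232, were compared with the 6 MH libraries, which leaves 1 DP library per stage, chosen after seeing the data. The MH sums were 287 in MHLBA1 and 6.69 to 46.7 in the other MH libraries. DPLBA2 was thus within the MH range only through MHLBA1, and the fit does not match the breeds in cartilage markers. In DPLBJ1 and DPLBA2, WNT4 was at 1.79 and 2.09 RPKM and SFRP5 at 4.98 and 5.00, with MH maxima of 1.20 and 4.21. In that fit 10 members were called, 7 higher and 3 lower in DPs, and 8 of them were among the 15. These 8 were TCF7L2 (log2 -1.23), FZD2, DKK2 (-2.17), WNT4 (2.54), RSPO1 (-2.32), WIF1 (1.36), DKK3 (1.62) and RSPO2 (2.56). The call of SFRP5 was lost, its log2 difference going from 3.49 to 1.26. The calls of WNT9B, WNT1 (-2.07), FZD4 (-0.91), DKK1 (1.46) and WNT5A (0.80) were lost as well, and WNT11, also not called there, changed sign to -0.62.

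Leaving out single libraries kept the call of 11 of the 15 members in all 12 such fits. DKK1 lost it without DPLBA2, DPLBA3, DPLBJ1, DPLBJ3, MHLBA1, MHLBA2, MHLBJ1 or MHLBJ3 (log2 0.90 to 1.25). WNT5A lost it without DPLBA1, DPLBA3, DPLBJ3, MHLBA1, MHLBA2, MHLBJ1 or MHLBJ2, and without DPLBJ3 its log2 difference was 0.80. FZD4 lost it without DPLBA2, DPLBA3, DPLBJ2, DPLBJ3, MHLBA2, MHLBA3, MHLBJ1 or MHLBJ2 (-1.07 to -0.88). DKK3 lost it without DPLBA2, DPLBJ1, MHLBA2, MHLBA3 or MHLBJ2, and without DPLBA2 its log2 difference was 0.55. With library size alone as the scaling DKK1 (1.02), WNT5A (2.05) and DKK3 (0.99) were not called.

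**Figure D4:**
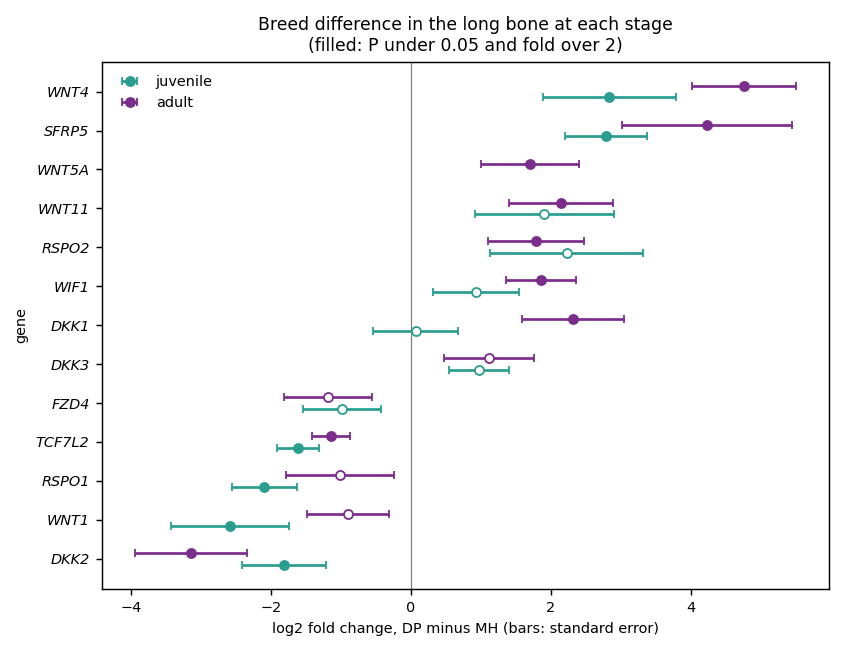
Log2 fold change, DP minus MH, of 13 of the 15 members called over both stages, in juveniles and in adults, with standard errors. Filled points have a fold change over 2 with P under 0.05 before adjustment, WNT5A has no juvenile value, and WNT9B and FZD2 are not drawn because of their low reads. The 2 stages lie on the same side of 0 for every member with both values, and DKK1 is the one whose juvenile point lies nearest to 0.

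At the single stages, 7 of 33 members tested (21.2%, against 13.8% of all genes) were called in juveniles, 2 higher and 5 lower in DPs, as 8.33% and 5.47% of all genes were. In adults 11 of 37 (29.7%, against 18.3% of all genes) were called, 9 higher and 2 lower, as 10.3% and 8.03% of all genes were. The median log2 difference of the members was -0.18 in juveniles and 0.41 in adults, with 0.05 and -0.03 over all genes. In juveniles 0 members and 0% of all genes passed with an adjusted p under 0.05 in edgeR's test. Before adjustment, 8 had a P under 0.05 in that test and DESeq2 called 10. In adults 2.24% of all genes passed so, and WNT4 was the only member (log2 4.76, SE 0.74, adjusted p = 0.0333). WNT4, SFRP5, DKK2 and TCF7L2 were called at both stages in the same direction. The juvenile calls included 2 R-spondins and a ligand that were not called in adults, namely RSPO1 (4.29-fold lower in DPs), RSPO3 (2.13-fold lower) and WNT1 (6.02-fold lower). The adult calls included LEF1, TCF7, WIF1, DKK1, WNT11, RSPO2 and WNT5A, all higher in DPs.

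LEF1, a transcription factor that binds beta-catenin and is active in osteoblast precursors, differed in its pattern between the stages. It was at 60.0, 28.3 and 71.4 RPKM in DPLBA and at 10.5, 18.2 and 22.0 in MHLBA (3.0-fold, adjusted p = 0.0551). In juveniles it was at 24.7, 23.9 and 43.3 in DPLBJ and at 34.8, 37.5 and 73.7 in MHLBJ. The adult breeds did not overlap and the juvenile breeds did, and the difference between the stages is tested below.

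Single libraries carried several of these calls. In juveniles RSPO3 fell under a 2-fold change without DPLBJ2 (log2 -0.86), and DKK2 lost its call without MHLBJ1 (-1.74). WNT4 lost it without DPLBJ3 (1.53), MHLBJ1 (2.45) or MHLBJ3 (2.58), and WNT1 without DPLBJ3 (-2.47) or MHLBJ1 (-1.75). In adults DKK1 and TCF7 lost it without DPLBA3 (1.91 and 1.17) and TCF7L2 without MHLBA2 (-0.87). WNT11 lost it without DPLBA3 (1.1), MHLBA2 (1.89) or MHLBA3 (1.98). RSPO2 lost it without DPLBA2 (1.46), DPLBA3 (1.59), MHLBA2 (1.52) or MHLBA3 (1.90), and WNT5A without DPLBA1 (1.33), DPLBA3 (1.68), MHLBA1 (1.47) or MHLBA2 (1.62). WNT5A also lost it with library size alone (1.62), without the filter on low counts (1.77) and with DESeq2 (1.72). With all 12 libraries of the tissue in 1 fit, WNT5A (1.71), TCF7 (1.44) and RSPO2 (1.79) lost it.

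Other genes of the pathway came from lists of names, also chosen with earlier results of these data known. They were examined in the same fit over both stages of the long bone, where 19.3% of all genes tested were called, 11.4% higher and 7.97% lower in DPs. The median log2 differences of the lists ran from -0.35 (planar cell polarity) to 0.92 (other inhibitors), beside -0.01 over all genes. Of 3 genes of WNT secretion and release, 1 was called, NOTUM, an enzyme that removes the lipid from WNT proteins, which was higher in DPs (log2 2.07, SE 0.56, adjusted p = 0.0297). Of 7 other receptors and turnover genes tested, 2 were higher and 1 lower. The higher ones were PTK7 (log2 1.34, adjusted p = 0.00799) and the WNT5A receptor ROR2 (log2 1.45, adjusted p = 0.0114), and the lower was the ubiquitin ligase RNF43 (log2 -2.50, adjusted p = 0.132). Of 7 other inhibitors, FRZB, a cartilage SFRP relative, was higher (log2 2.10, adjusted p = 0.0427) and none was lower. FRZB was at 16.9 to 46.7 RPKM in DPLBA1, DPLBA3, DPLBJ2 and DPLBJ3, the DP libraries with the highest cartilage sums. In DPLBA2 and DPLBJ1 it was at 3.79 and 4.67, within the MH range of 0.51 to 9.95. The part of cartilage in its call was not tested. None of 9 destruction complex and DVL genes was called. Of 11 coactivators and corepressors only TLE1 was called, lower in DPs (log2 -1.23, adjusted p = 0.0238). In the calcium branch 3 of 19 genes were higher, PLCB2, PLCG2 and PRKCB, and PPP3CC was lower. In the planar cell polarity branch 1 of 13 was higher, PRICKLE1, and 2 were lower, MAPK10 and CELSR1. Of 12 commonly named WNT target genes, NOTUM and TNFRSF11B, which encodes osteoprotegerin, were higher, and JAG1 and RNF43 lower. RNF43 was at 5.17 RPKM in MHLBA1, at 0.04 to 0.50 in the other 5 MH libraries and at 0 to 0.62 in DPs, so 1 library carried its call. CELSR1 was likewise at 1.01 in MHLBA1, at 0.04 to 0.16 in the other MH libraries and at 0.01 to 0.10 in DPs. Without MHLBA1 their log2 differences were -0.64 and -0.56 in place of -2.50 and -2.15. RNF43 also lost its call without DPLBA1, DPLBA3, DPLBJ1, DPLBJ2, DPLBJ3 or MHLBJ3 (-2.76 to -1.66), and CELSR1 without DPLBA1, DPLBA3, DPLBJ1, DPLBJ3 or MHLBJ3 (-2.07 to -1.69). JAG1 fell under a 2-fold change without DPLBA2, DPLBA3, DPLBJ2, DPLBJ3, MHLBA2, MHLBA3 or MHLBJ1 (-1.0 to -0.89), and PRICKLE1 without DPLBA1, DPLBA3, DPLBJ1, DPLBJ3, MHLBA1, MHLBJ1 or MHLBJ3 (0.84 to 1.00). TNFRSF11B lost its call without DPLBA1 (0.91) or DPLBJ3 (0.94), and PRKCB without DPLBA2 (1.46) or DPLBJ2 (1.1). PLCB2, PLCG2 and PRKCB were highest in DPLBJ2, at 30.0, 31.6 and 32.8 RPKM, the library with the marrow sum of 8114, and the part of marrow cells in these calls was not tested. The other 9 genes called kept the call in all 12 fits without 1 library.

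In the juvenile pituitary 11 of 40 members tested were called between the breeds, 2 higher and 9 lower in DPs, 27.5% of the members against 20.3% of all genes tested (7.6% higher and 12.7% lower). The adjusted p was under 0.05 for 6 of them, as for 8.73% of all genes. The median log2 fold change, DP minus MH, was -0.60 over the members and -0.07 over all genes. All 3 MHPJ libraries were hormone-poor and all 3 DPPJ libraries were not, so breed and the near absence of anterior hormone transcripts cannot be told apart here, and no fit without the hormone-poor libraries could be made.

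FZD6 and WNT16 were the members higher in DPs. FZD6, a receptor of the polarity branch, was at 13.2, 12.9 and 11.3 RPKM in DPPJ and at 4.51, 4.43 and 2.63 in MHPJ, with no overlap (2.84-fold, adjusted p = 0.0262). In the 4 hormone-rich adult libraries it was at 14.6 to 22.0, and in the hormone-poor MHPA1 and DPPA1 at 9.52 and 6.07. WNT16, a ligand known in bone and joints, was at 0.79, 0.89 and 0.69 RPKM in DPPJ and at 0.07, 0.15 and 0.08 in MHPJ (adjusted p = 0.0308). MHPJ libraries held only 2 or 3 reads of WNT16, and no fold is given. In adults WNT16 was at 0, 0.38 and 0.62 RPKM in MHPA and at 1.68, 1.04 and 0.52 in DPPA.

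The ligands WNT7B, WNT8A, WNT10B and WNT5B were lower in juvenile DPs. WNT7B, a ligand of developing epithelia and neurons, was at 0.41, 0.44 and 0.95 RPKM in DPPJ and at 3.09, 10.6 and 3.29 in MHPJ (10.9-fold lower, adjusted p = 0.0387). WNT8A was at 0.19, 0.44 and 0.50 in DPPJ and at 1.94, 1.72 and 2.04 in MHPJ (5.72-fold lower, adjusted p = 0.0305). Neither gene's groups overlapped, and the hormone-poor adult libraries MHPA1 and DPPA1 were at 1.49 and 1.91 for WNT7B and at 0.23 and 0.89 for WNT8A. WNT10B had 1, 3 and 0 reads in DPPJ and 16, 8 and 12 in MHPJ. RSPO2 had 2, 7 and 2 reads in DPPJ and 17, 98 and 72 in MHPJ (27.3-fold lower by the fit, adjusted p = 0.0421). Among adults RSPO2 had 232 reads in the hormone-poor DPPA1 and 1 to 6 in the other 5 libraries, hormone-poor MHPA1 included.

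LEF1 was at 5.11, 10.4 and 4.38 RPKM in DPPJ and at 17.3, 22.7 and 19.5 in MHPJ (3.45-fold lower in DPs, adjusted p = 0.0427). Across the 12 pituitary libraries LEF1 was at 17.3 to 22.7 in the 5 hormone-poor libraries and at 4.01 to 10.4 in the others, and the 10.4 was DPPJ2, whose neuronal and glial sum was 4074. TCF7L2 (2.29-fold lower), LGR5 (4.00-fold lower), SFRP1, WNT5B and WNT10B were the calls with an adjusted p over 0.05. SFRP1 was at 90.3 RPKM in MHPJ2 and at 13.8 and 6.54 in the other MHPJ libraries, against 8.66, 6.57 and 3.65 in DPPJ. Without MHPJ2 its log2 difference went from -2.78 to -0.81, and it also lost its call without DPPJ1 (-3.10), DPPJ2 (-2.80) or DPPJ3 (-2.49). TCF7L2 lost its call without MHPJ2 (-0.69), DPPJ1 (-1.25) or DPPJ3 (-1.07). WNT5B lost it without DPPJ1 (-1.86), DPPJ3 (-1.76) or MHPJ1 (-1.92), and its log2 difference was -3.30 without DPPJ2. The other 8 calls were kept in all 6 fits that left out 1 library, but with all 12 libraries of the tissue in 1 fit LEF1 (-1.75), TCF7L2 (-1.15) and WNT5B (-2.13) were not called. SFRP5, the most abundant member of the gland, was at 149, 130 and 125 RPKM in DPPJ and at 194, 496 and 112 in MHPJ and was not called.

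**Figure D5:**
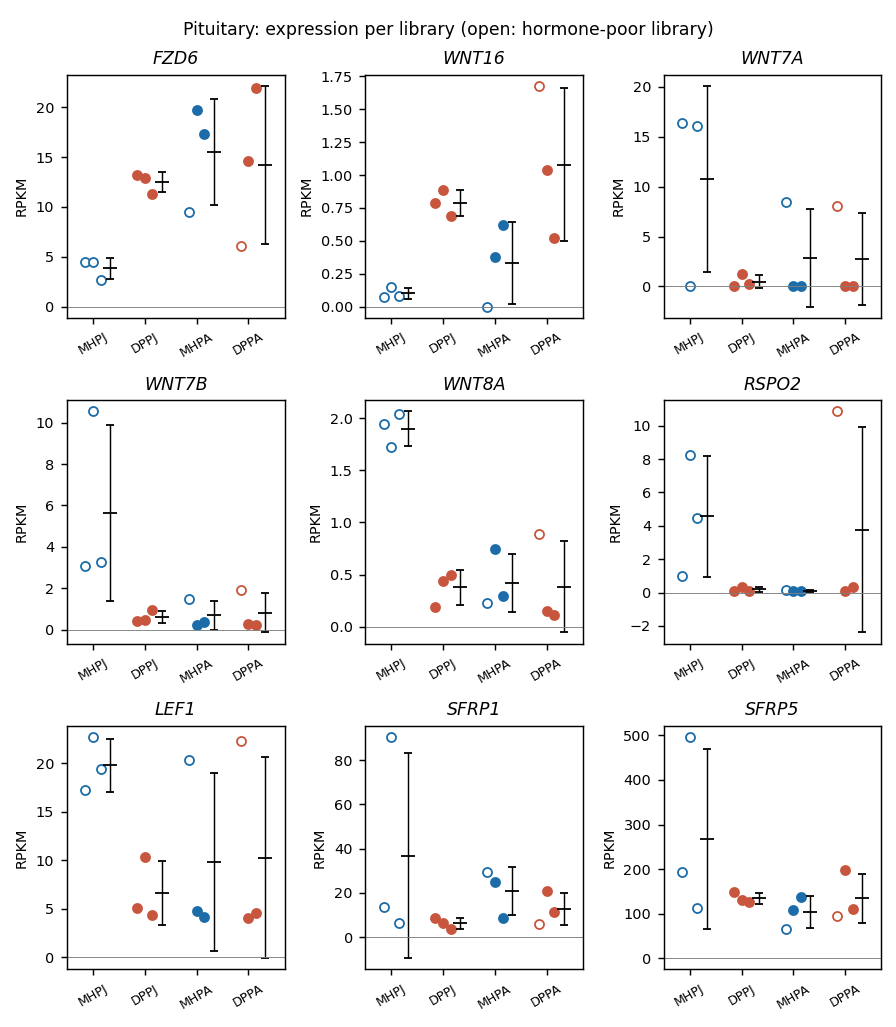
RPKM of 9 members in each of the 12 pituitary libraries (blue MH, red DP), with the mean and SD of each group of 3. Open points are the 5 hormone-poor libraries. LEF1 is high in all open points, WNT7A in 4 of the 5, and FZD6 is lowest in the open points.

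Among the other pathway genes in the juvenile pituitary, 9 of 19 genes of the calcium branch were lower in DPs and none higher, where 12.7% of all genes tested were lower and 7.6% higher. They included CAMK2G (log2 -1.39, adjusted p = 0.0183) and PLCB1 (log2 -2.51, adjusted p = 0.0265). Of 6 other inhibitors tested, 4 were lower, APCDD1, FRZB, NKD2 and NKD1. Of 13 polarity genes 3 were lower, of 11 coactivators and corepressors 2, and of 10 destruction complex and DVL genes 1, the scaffold APC. Of 12 WNT target genes tested, 5 were lower in DPs, RUNX2 (log2 -3.55, adjusted p = 0.0143), MMP7, TNFRSF11B, MYC and NKD1, and 1 was higher, RNF43 (log2 2.20, adjusted p = 0.0327). RNF43 was also in the list of receptors and turnover genes. CAMK2D, CAMK2G, PLCB1 and PRKCA of the calcium branch, APCDD1, RUNX2 and RNF43 kept their calls in all 6 fits without 1 library. The other 5 calcium genes lost theirs in 1 to 5 of these fits. MMP7 lost its call without MHPJ2 (-0.99), TNFRSF11B without DPPJ1, DPPJ3 or MHPJ1 (-2.40 to -2.28) and MYC without DPPJ1, DPPJ3 or MHPJ2 (-1.16 to -0.64). FRZB lost it without DPPJ2 or DPPJ3 (-2.22 and -1.99), APC without DPPJ3 (-1.66), NKD1 without DPPJ1, DPPJ3, MHPJ1 or MHPJ3 (-2.93 to -2.40) and NKD2 without DPPJ1, DPPJ2, DPPJ3 or MHPJ2 (-2.39 to -0.87). The median log2 differences of the lists ran from -2.23 (other inhibitors) to 0.13 (other receptors and turnover genes), beside -0.07 over all genes. These genes share the contrast of hormone-poor against hormone-rich libraries described above.

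In the adult pituitary 2 of 35 members tested were called, 1 in each direction, which is 5.71% against 2.93% of all genes (1.75% higher and 1.18% lower). With an adjusted p under 0.05 in edgeR's test 0 members passed, as did 0.0348% of all genes, while 2 had an unadjusted P under 0.05 and DESeq2 called the same 2. FZD1 was at 4.61, 1.52 and 1.69 RPKM in DPPA and at 0.69, 0.91 and 1.11 in MHPA (3.30-fold higher in DPs, adjusted p = 0.515). WNT9A was at 0.54, 1.18 and 1.64 in DPPA and at 3.25, 3.0 and 2.49 in MHPA (2.45-fold lower, adjusted p = 0.515). The breeds did not overlap for either gene. Without the hormone-poor MHPA1 and DPPA1, neither was called (log2 0.85 and -0.78). The replicate number was also fitted as a block, chosen from correlations in the data. The hormone-poor DPPA1 and MHPA1 carry the same number, so the block also takes up that contrast, and the labels do not pair DP with MH animals. With the block FZD1 kept its call (1.49) and WNT9A lost it (-1.33), leaving 1 member called. FZD1 also lost it without DPPA1 (0.93), MHPA1 (1.65) or MHPA2 (1.65), and WNT9A without DPPA1 (-0.99), DPPA2 (-1.35), MHPA1 (-1.08), MHPA2 (-1.36) or MHPA3 (-1.45). Over both stages 2 of 41 members were called, 4.88% against 7.86% of all genes (3.11% higher and 4.76% lower), WNT16 higher in DPs (adjusted p = 0.0899, with no fold given for its 2 or 3 reads in MHPJ) and SFRP1 lower (adjusted p = 0.171). SFRP1 lost this call without DPPA1 (-1.54), DPPA3 (-1.59), DPPJ2 (-1.65), DPPJ3 (-1.51), MHPA1 (-1.40) or MHPJ2 (-0.70), and without the 2 hormone-poor adult libraries (-1.29). In that last fit 3 members were called, 1 of them shared. No member's adjusted p was under 0.05 (0.599% of all genes passed so), while 3 members had an unadjusted P under 0.05 and DESeq2 called 5.

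Between the stages, differences within the pituitary were called mostly in MHs. There 8 of 36 members were called, 6 higher and 2 lower in juveniles (22.2%, against 7.74% of all genes, 4.5% higher and 3.24% lower). In DPs 1 of 36 was called, lower in juveniles (2.78%, against 3.56%, 0.929% higher and 2.64% lower). The median log2 difference of the members, juvenile minus adult, was 0.40 in MHs and -0.49 in DPs, with 0.01 and -0.03 over all genes. No adjusted p was under 0.05 in either breed from edgeR's test. Unadjusted P was under 0.05 for 8 members in MHs and 3 in DPs, and DESeq2 called 9 and 3. The 3 juvenile MH libraries and 1 of the 3 adult MH libraries were hormone-poor, so these stage differences cannot be told apart from that contrast.

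In MHs FZD6 was 3.43-fold lower in juveniles, 4.51, 4.43 and 2.63 RPKM against 9.52, 19.7 and 17.3, with no overlap. FZD1 (2.57-fold) and SFRP5 (3.06-fold) were higher in juveniles, and RSPO2, with 17 to 98 reads in juveniles, had 1 or 2 in adults. Without MHPA1, 8 members were called in MHs, 7 higher and 1 lower in juveniles, 5 of them shared. SFRP5 (1.44), WNT9A (-1.01) and FZD1 (1.30) were no longer called there. Leaving out 1 library, the call of SFRP5 was lost also without MHPA2 (1.61), MHPA3 (1.83) or MHPJ2 (0.74), and that of FZD1 without MHPA2 (1.33), MHPA3 (1.51) or MHPJ2 (0.86). That of WNT9A was lost without MHPA2 (-1.26), MHPA3 (-1.34), MHPJ1 (-1.09) or MHPJ2 (-1.03) and without the filter on low counts (-1.25), and that of WNT7B without MHPA2 (2.66), MHPA3 (2.79) or MHPJ2 (2.25). The fitted log2 value of WNT10B rose from 4.06 to 6.61 without MHPA2, since MHPA then had 0 reads in both libraries.

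In DPs LGR5 was lower in juveniles, at 1.97, 1.04 and 2.38 RPKM against 1.96, 3.93 and 5.59 in adults (2.27-fold, adjusted p = 0.419). The hormone-poor DPPA1 was the adult library within the juvenile range. It lost its call without DPPA2 (log2 -1.14), DPPA3 (-0.88), DPPJ1 (-1.28) or DPPJ2 (-0.90), and 2 members were called without DPPA1, LGR5 among them. It was not called with library size alone (-1.04) or with all 12 libraries of the tissue in 1 fit (-1.17), and the latter fit called 1 other member.

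Few members differed between the stages in the long bone. In MHs 1 of 35 members tested was called (2.86%, against 2.91% of all genes, 0.763% higher and 2.14% lower in juveniles). This was LEF1, at 34.8, 37.5 and 73.7 RPKM in juveniles and 10.5, 18.2 and 22.0 in adults, with no overlap (2.60-fold, adjusted p = 0.998). Without MHLBJ3 its log2 difference was 0.99, just under the 2-fold limit. In DPs 3 of 35 were called, all lower in juveniles (8.57%, against 3.14%, 1.58% higher and 1.56% lower). DKK1 was at 10.6, 2.97 and 6.16 RPKM in juveniles and 13.1, 16.5 and 30.8 in adults, with no overlap (3.01-fold, adjusted p = 0.988). SFRP5 (4.27-fold) and LGR6 (2.74-fold) were the other calls, and the stages overlapped for both. DKK1 lost its call without DPLBA3 (-1.17) or DPLBJ3 (-1.49). SFRP5 lost it without DPLBA1 (-1.66), DPLBA3 (-1.80), DPLBJ1 (-1.72), DPLBJ2 (-2.16) or DPLBJ3 (-2.44), and LGR6 without DPLBA1 (-1.63), DPLBA3 (-0.78), DPLBJ2 (-1.05) or DPLBJ3 (-1.56). With all 12 libraries of the tissue in 1 fit DKK1 (-1.58) and SFRP5 (-2.08) were not called, and with DESeq2's size factors SFRP5 (-2.06) and LGR6 (-1.42) were not. No adjusted p was under 0.05, 2 and 3 members in MHs and DPs had an unadjusted P under 0.05, and DESeq2 called 1 and 4. The members' median log2 differences were -0.07 in MHs and -0.32 in DPs, beside -0.03 and 0.03 over all genes.

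Whether the breed difference itself changed with stage was tested by an interaction, the juvenile difference minus the adult difference. The differences keep their sign (DP minus MH), so a lower difference need not be smaller in size. In the long bone 3 of 39 members were called (7.69%, against 4.17% of all genes, 2.54% higher and 1.63% lower in juveniles). In the pituitary 10 of 41 were called (24.4%, against 15.7%, 6.8% higher and 8.87% lower). By edgeR's test 0 members passed an adjusted p of 0.05, 3 and 10 had an unadjusted P under 0.05, and DESeq2 called 3 and 11. In the long bone these were LEF1 (log2 -2.16, SE 0.51), DKK1 (-2.29) and LGR6 (-1.78), each with a signed difference that was lower in juveniles than in adults. In the pituitary FZD6 and WNT9A had the higher signed difference in juveniles, and FZD1, LGR5, RSPO2, SFRP5, TCF7L1, WNT7B, WNT8A and WNT10B the lower. Of these, WNT7B, WNT8A, WNT10B, RSPO2 and LGR5 were called lower in DPs in juveniles and were not called or not tested in adults. WNT9A was called lower in DPs in adults and not called in juveniles. The pituitary interaction again sets 3 hormone-poor MHPJ libraries against groups with at most 1. Without MHPA1 and DPPA1 9 members were called, 5 of them shared.

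Of the members with q-PCR primers, WNT2 was the least abundant. It was at 0 to 1.02 RPKM in the long bone and 0 to 0.96 in the pituitary, and its highest values were in DPLBJ2 and MHPJ3 with 33 reads each. WNT2 was not called between the tissues, and its reads were too few to be tested between breeds or stages. In the juvenile long bone it had 0, 33 and 3 reads in DPLBJ and 3, 0 and 1 in MHLBJ. WNT5A and WNT11 in the pituitary had medians of 0.73 and 1.56 RPKM and were not called between breeds or stages. FZD2 in the pituitary lay between 0.38 and 0.84 RPKM in 11 libraries and at 2.26 in MHPJ2 and was not called between breeds or stages either.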

How the data were processed

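Total RNA of 24 libraries (3 in each of 8 groups, taken from the labels) was depleted of ribosomal RNA and made into directional libraries. The labels and the study's methods differ on the sequencer, read layout and mapping tool (TopHat2 in the submitters' processing notes, Salmon in the methods), and the counting tool and strand setting are not given in the sources used here, so reads of overlapping genes on opposite strands cannot be told apart. The authors deposited whole-number read counts per gene, not normalized, and RPKM values computed from them with a gene length. In DPLBA2 the RPKM of 373 of 12054 genes with at least 50 reads, 1 member (FZD1) among them, was over 2% away from the value its reads give. No gene coordinates were in the files, and no genome of their build was used.

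Members were matched by symbol, and the members and pathway and marker lists were chosen with earlier results of these data known. Counts of all genes were filtered (filterByExpr, minimum count 10), normalized with TMM and tested with edgeR 4.0.16 in R 4.3.3 (glmQLFit and glmQLFTest), within the groups of each comparison, with Benjamini-Hochberg adjustment over all genes tested. The breed comparison over both stages contrasted the means of the DP and MH groups, and the tissue comparison the means of the 4 pituitary and 4 long bone groups. The fits were tested on simulated data first. Named members are those called (P under 0.05, fold over 2; at most 12 with the lowest P in each comparison for full values), the 8 highest by RPKM in each tissue and the 5 with primers. Where a group had at most 3 reads per library, reads are given in place of a fold. Depth limits the members with few reads, and p-values measure the spread between 3 animals per group. Same-numbered libraries of the adult pituitary groups deviated together (correlations of 0.35 to 0.64 across genes, the pairing coming from the data and not from the labels), so the replicate block is given beside that comparison, while in the other comparisons they did not all do so. MHPA1 and DPPA1, the hormone-poor libraries of these groups, share a number, so the block also takes up that contrast. Alternatives were DESeq2 1.42.0, its size factors in edgeR, library size alone, no filter, the replicate block, all 12 libraries of a tissue and leaving out each library. Leaving out the hormone-poor pituitary or the cartilage-rich DP long bone libraries, and leaving out each library for the pathway genes, was added after seeing the data.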

Additional observations from a re-analysis of the deposited data

Results flagged for a closer look

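The values here are interactions, the DP minus MH difference in juveniles minus that in adults on the log2 scale, for the 13 members whose difference between the stages passed an unadjusted P under 0.05 and a 2-fold size in edgeR's quasi-likelihood test. No adjusted p was under 0.05 (0.15 to 0.234 in the pituitary and 0.971 in the long bone).

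In the pituitary the signed DP minus MH difference was higher in juveniles for WNT9A (1.70) and FZD6 (1.51). It was lower in juveniles, which need not mean smaller in size, for SFRP5 (-1.71), TCF7L1 (-1.77), LGR5 (-2.33), FZD1 (-2.35), WNT8A (-2.63), WNT7B (-3.73), WNT10B (-6.19) and RSPO2 (-10.16). The values of WNT10B and RSPO2 set groups with 0 to 3 reads against others and depend on the prior count, and RSPO2 was at -5.86 without DPPA1. Leaving out MHPA1 and DPPA1, the hormone-poor adult libraries, took the calls of SFRP5, WNT8A (-0.75), WNT9A (1.19), TCF7L1 and WNT10B (-3.78). The calls of FZD1, FZD6, RSPO2 and WNT10B were kept in all 12 fits without 1 library. SFRP5 was at -0.88 and TCF7L1 at -0.81 without MHPJ2, and WNT8A at -0.97 and WNT7B at -2.02 without DPPA1.

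In the long bone the signed difference was lower in juveniles for LEF1 (-2.16), DKK1 (-2.29) and LGR6 (-1.78). LEF1 kept its call in all 12 fits without 1 library. With library size alone as the scaling DKK1 (-2.27) in the long bone and SFRP5 (-1.40) and WNT8A (-2.25) in the pituitary, as well as TCF7L1, were not called. DKK1 lost it without DPLBA2, DPLBA3, DPLBJ2, DPLBJ3, MHLBA1, MHLBA2, MHLBJ1 or MHLBJ2 (-2.46 to -1.67), and LGR6 without DPLBA3, DPLBJ2, DPLBJ3, MHLBA1, MHLBA2, MHLBJ1 or MHLBJ3 (-1.89 to -1.13).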

How the results depend on the processing

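Requiring an adjusted p under 0.05 left 6 of 11 in the juvenile pituitary, 1 of 11 in the adult long bone, 8 of 15 in the long bone over both stages, and 0 in the adult pituitary, the juvenile long bone, all 4 stage comparisons, the pituitary over both stages and both interactions. The replicate block gave 1 in the adult pituitary, 4 between stages in the MH pituitary and 2 between stages in the MH long bone, and moved no other count by over 1.5 times. Its 1 call between stages in the DP pituitary was not the member called without it, LGR5 (-1.17 with the block). It also took the calls of SFRP1 in the juvenile pituitary (-1.88), of WNT5A (1.60) and RSPO2 (1.63) in the adult long bone, of SFRP5 between stages in the DP long bone (-1.66) and of DKK1 (1.26), WNT5A (1.87) and DKK3 (0.99) in the long bone over both stages. Fitting all 12 libraries of a tissue gave 11 in the juvenile long bone and 1 between stages in the DP long bone. In the DP pituitary, where 1 member was called between stages, library size alone gave 0, DESeq2's size factors 2, no filter 2, DESeq2 3 and leaving out the hormone-poor adult library 2. DESeq2's size factors gave 1 between stages in the DP long bone, library size alone 2 in the MH long bone, and DESeq2 5 in the pituitary over both stages. Without the hormone-poor adult libraries the adult pituitary gave 0. Library size alone moved the median of all genes by -0.23 to 0.28 (log2), against -0.04 to 0.07 with DESeq2's size factors, and in the adult pituitary split the calls as 1 higher and 2 lower in DPs.

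Leaving out 1 library, the counts ran from 8 to 13 in the juvenile pituitary, 0 to 2 in the adult pituitary, 6 to 12 in the juvenile and 7 to 13 in the adult long bone. Between stages they ran from 4 to 10 and 1 to 3 in the MH and DP pituitary and from 0 to 4 and 0 to 6 in the MH and DP long bone. Over both stages they ran from 1 to 6 in the pituitary and 12 to 15 in the long bone, for the interactions from 7 to 12 and 1 to 5, and between tissues from 30 to 36. Of the values of single called members, 2 changed sign, WNT11 to -0.62 in the long bone over both stages without the 4 cartilage-rich DP libraries and WNT7B to -0.29 between tissues without the 5 hormone-poor libraries, both without a call. Causes beyond the smaller number of libraries were not tested. Depth limited the members with few reads, and WNT3A, WNT8B, DKK4 and RSPO4 could not be tested in any comparison.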
